A study of Mus musculus with 8 samples.

Results

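Cell adhesion genes of the cadherin and claudin families and the transcription factors of the epithelial to mesenchymal transition (EMT) were followed across a microarray series of mouse pluripotent and germ cells. The genes were Cdh1, Cdh2, Cdh3, Epcam, Cldn6, Cldn7, Snai1, Twist1, Zeb1 and Zeb2, taken by symbol in the annotation of the array with every probe that carried it. Of these 10 genes 9 had a probe, with 17 probes among the 25697 of the array and the 16593 genes they name, and 8 genes were detected on at least 1 array. No probe carries the symbol Epcam in the annotation used here, and that gene was not analysed here.

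The 8 arrays held embryonic stem cells (ESCs) with the Oct4-GFP(ΔPE) reporter, labelled wt or Gcnf-deficient (Gcnf -/-), 1 array each, cells sorted for Oct4-GFP as in vitro-derived primordial germ cells (PGCs) from both genotypes on day 12 and on day 15, 1 array each, and 2 arrays of epiblast stem cells (EpiSCs). Gcnf is an orphan nuclear receptor (gene Nr6a1) that represses Oct4. The labels give the strain C57BL/6. ESCs were grown on irradiated embryonic fibroblasts with LIF and differentiated on gelatin with neither, so the ESC arrays can hold feeder RNA. The methods name male and female wt lines and a female Gcnf -/- line, do not say which wt line is behind an array, and speak of biological or technical duplicates, so the 2 EpiSC arrays may be technical repeats and genotype cannot be told apart from line. With 1 array per condition, the genotype and stage differences below have no replicate of their own, and a fit with limma, which fits a linear model to every probe and shares its estimate of the spread between probes, that takes the 3 stages as repeats of the genotype difference gives the only test of it. The EpiSC fits take the ESC arrays of both genotypes, or the PGC arrays of both genotypes and days, as 1 group. The spread in those fits therefore holds genotype and, among PGCs, day differences.

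Background is as follows. Cadherins join cells through calcium-dependent contacts, with Cdh1 (E-cadherin) typical of epithelia and of pluripotent cells and Cdh2 (N-cadherin) of mesenchymal and neural cells. Claudins form the strands of tight junctions. Snai1, Twist1, Zeb1 and Zeb2 are transcription factors known for lowering epithelial genes during EMT, and the Snail and Zeb families bind short E-box sequences, among them sites in the Cdh1 promoter.

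Across the arrays 9939 to 11273 probes were detected (detection p under 0.01), which was 38.7% to 43.9% of them. Among the 9638 probes detected on both EpiSC arrays the SD of their log2 difference was 0.26, and 29 probes differed by over 2-fold. The markers of embryonic fibroblasts, the feeder cells, stood apart on 1 array. Of 15 such genes with a probe, 13 were detected on the wt ESC array, 9 on the Gcnf -/- ESC array and 4 or 5 on every other array, at a mean log2 signal of 9.08, 6.36 and 4.74 to 5.12. The labels give all samples the cell type PGC, so the groups were read from the titles and checked by markers. Of 7 germ cell genes with a probe 5 or 6 were detected on each PGC array, 4 and 5 on the ESC arrays and 0 on the EpiSC arrays. The counts thus set EpiSCs apart but overlapped between PGCs and ESCs. Mean log2 signals of these genes were 8.35 to 9.15 in PGCs and 6.92 and 7.61 in ESCs. In the limma fit of PGCs against ESCs 0 of 6 germ cell genes tested passed. Naive genes had similar means in PGCs (11.03 to 11.60) and ESCs (11.09 and 11.18). In EpiSCs all 6 naive genes with a probe were lower than in ESCs in the limma fit, and Fgf5, Pou3f1, Sfrp2 and Dnmt3b were higher. The 1 Nr6a1 probe was detected on all 8 arrays, at 9.64 in wt and 11.03 in Gcnf -/- ESCs, 10.38 and 9.94 on day 12 and 9.83 and 10.05 on day 15. None of the sources read says where this probe lies relative to the deleted part of the gene. It therefore does not check the genotype, and wt and Gcnf -/- are the names of the labels throughout.

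**Figure D1:**
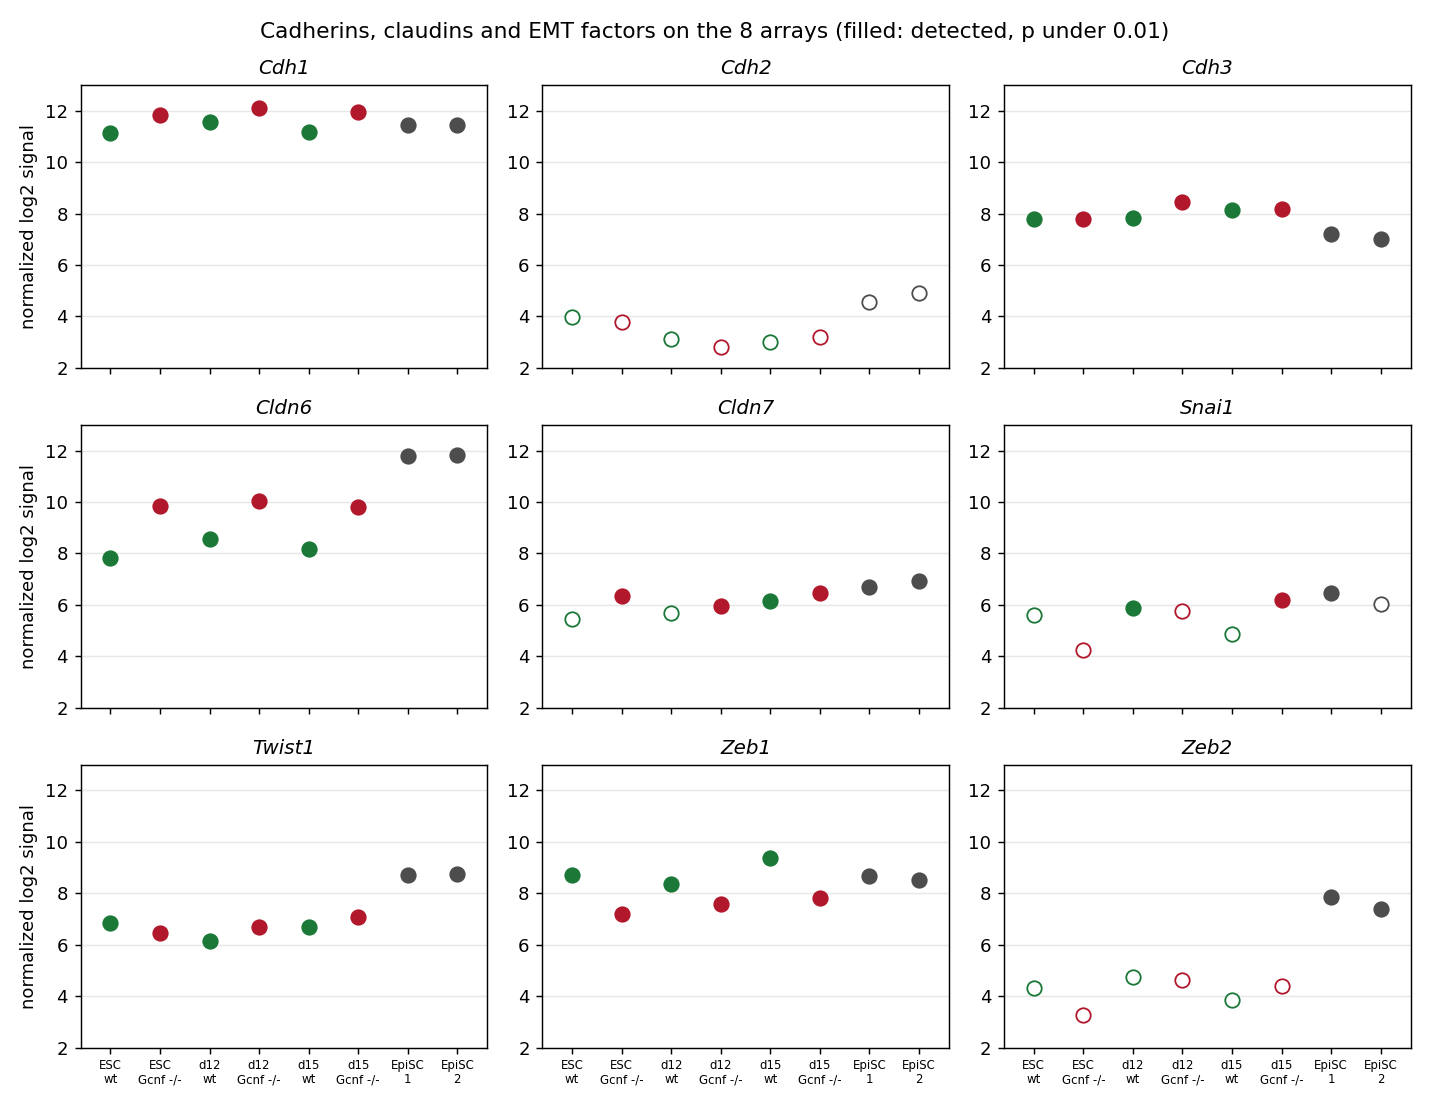
Normalized log2 signal (y axis) of the brightest probe of each of the 9 genes on the 8 arrays (x axis), with wt in green, Gcnf -/- in red and EpiSC in grey, and filled points where the probe was detected at p under 0.01. Cldn6 was higher in Gcnf -/- than in wt at every stage, Zeb1 was lower, and Zeb2 was detected in EpiSCs alone.

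Cldn6, a claudin of early embryonic epithelia, gave the largest genotype differences of the 9 genes in each of the 3 stages. Its normalized log2 signal was 7.81 in wt and 9.84 in Gcnf -/- ESCs, 8.55 and 10.04 on day 12, 8.16 and 9.81 on day 15, and 11.79 and 11.82 on the 2 EpiSC arrays. Every Gcnf -/- array lay above every wt array, and both EpiSC arrays lay above all of these.

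Gcnf -/- exceeded wt by 4.09-fold in the ESCs, by 2.82-fold on day 12 and by 3.15-fold on day 15. Fibroblast markers were higher on the wt than on the Gcnf -/- ESC array, at a mean log2 signal of 9.08 against 6.36. The part of feeder RNA in the ESC difference of Cldn6 was not tested. Over the 3 stages the limma estimate was 1.73 on the log2 scale (SE 0.27, higher in 3 of 3 stages), which missed the threshold with an adjusted p of 0.127 (unadjusted 0.000714). In that fit 0 of the 7 member genes tested passed, against 1 probe of 12717 (0.00786%), and 1708 probes had an unadjusted p under 0.05. Cldn6 alone among them passed under 4 of 13 alternatives (the neqc background model, an offset of 50 added before the log, no background correction and an intensity trend), with adjusted p from 0.0145 to 0.0489, and its adjusted p ran up to 0.509 over the others.

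Between the stages Cldn6 moved less than between the genotypes. The largest stage difference was 0.74 on the log2 scale, from wt ESCs to wt day 12, and the fit of PGCs against ESCs gave 0.32 (SE 0.28, limma adjusted p = 0.570). EpiSCs held 11.80 ± 0.02 (SD, n = 2), 6.32-fold the mean of the 4 PGC arrays (log2 difference 2.66, SE 0.56, limma adjusted p = 0.0108) and 7.86-fold that of the 2 ESC arrays (2.97, SE 0.73, limma adjusted p = 0.0560). The second difference missed the threshold in the main setting and passed under 6 of 10 other settings (limma adjusted p 0.0147 to 0.0490, with the authors' table, neqc, an offset of 50, no background correction, median scaling and an intensity trend), with 0.0654 to 0.216 under the other 4. The ESC mean spans the genotype gap, and without the wt ESC array, an alternative chosen after seeing the data in which the lone ESC array is assumed to vary like the EpiSC pair, the second difference was 1.96 with a limma adjusted p of 0.00688. With 1 EpiSC array left out the difference from PGCs was 2.67 and 2.64 and no longer passed (limma adjusted p = 0.0729 and 0.0750), where the lone EpiSC array is assumed to vary like the PGC arrays.

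The sequence before the Cldn6 start is shown because this gene carried the genotype pattern and because Snail and Zeb factors, whose own levels are given below, bind the E-box CAGGTG or its reverse complement CACCTG, in capitals here. The 250 bases before the start are from RefSeq (GRCm38.p6, chr17:23679115-23679364, plus strand), 5′ to 3′.
Cldn6: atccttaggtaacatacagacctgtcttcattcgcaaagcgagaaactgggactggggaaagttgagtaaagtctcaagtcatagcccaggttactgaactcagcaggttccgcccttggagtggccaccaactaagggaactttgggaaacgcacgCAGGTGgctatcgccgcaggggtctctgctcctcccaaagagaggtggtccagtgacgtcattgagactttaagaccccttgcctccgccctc
The window holds 1 E-box, which begins 93 bases before the start, and 17.2% of the 32851 RefSeq windows of this length hold at least 1 on either strand. The motif TCAAGGTCA, an extended half-site of the kind Gcnf is known to bind, and its reverse complement are not in these letters, and 0.387% of the windows hold it. A match is a string of letters and not a site of binding.

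Cldn7, a claudin of many simple epithelia, was near the limit of detection. It read 5.46 (not detected) in wt and 6.33 in Gcnf -/- ESCs, 5.69 (not detected) and 5.97 on day 12, 6.13 and 6.47 on day 15, and 6.70 and 6.92 in EpiSCs. The Gcnf -/- array was the higher in each of the 3 stages and the EpiSC arrays were above all others, but the genotypes overlapped across stages. The estimate over stages was 0.49 (SE 0.28, limma adjusted p = 0.478), and EpiSCs exceeded PGCs by 0.74 (SE 0.28, limma adjusted p = 0.0843).

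Cdh1, the main adhesion molecule of pluripotent and epithelial cells, was detected on every array. Its log2 signal was 11.13 in wt and 11.85 in Gcnf -/- ESCs, 11.55 and 12.11 on day 12, 11.17 and 11.95 on day 15, and 11.42 and 11.44 in EpiSCs. The 3 Gcnf -/- arrays were the highest of the 8, and the EpiSC arrays fell among the wt arrays. The differences were 1.65-fold, 1.47-fold and 1.72-fold, and the estimate of 0.69 (SE 0.26, 95% interval 0.05 to 1.32) had a limma adjusted p of 0.340 (unadjusted 0.0380). Cdh1 lies on chromosome 8, whose genes were shifted on the wt day 12 array: the median genotype difference on day 12 was 0.45 over 420 genes of chromosome 8 and -0.04 over other chromosomes, while in ESCs and on day 15 it was -0.08 and -0.09 on chromosome 8. The part of that shift in the day 12 value of Cdh1 was not tested, and without the day 12 arrays the estimate was 0.75. Without the ESC arrays, which differed in fibroblast markers, the estimate was 0.67. The part of feeder RNA in the ESC difference of Cdh1 was not tested. EpiSCs differed from ESCs by -0.06 (95% interval -0.93 to 0.81) and from PGCs by -0.26 (-1.01 to 0.48).

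Cdh3 (P-cadherin), an adhesion molecule of placenta and basal epithelia, was lower in EpiSCs than in PGCs. Its brightest probe read 7.80 in wt and 7.80 in Gcnf -/- ESCs, 7.82 and 8.45 on day 12, 8.12 and 8.17 on day 15, and 7.19 and 7.01 in EpiSCs. Both EpiSC arrays were below all 6 others, and on this probe the genotypes differed by over 0.1 on day 12 alone, the stage at which the chromosome 8 shift was seen. EpiSCs fell by 1.04 against PGCs (SE 0.26, limma adjusted p = 0.0210) and by 0.70 against ESCs (SE 0.21, limma adjusted p = 0.0868), and the call against PGCs was lost without either EpiSC array (limma adjusted p = 0.121 and 0.171). A second probe, detected on the 6 other arrays and not in EpiSCs, fell by 1.43 against PGCs (SE 0.37, limma adjusted p = 0.0228). That probe entered the fit only through the PGC arrays, and its p-value rests on EpiSC signals below detection. Of the remaining probes of Cdh3, 1 was detected on the wt ESC array alone and 1 on no array. Cdh2 was detected by none of its 4 probes on any array (detection p of 0.0714 or more), so no direction can be given for it.

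Zeb1, a repressor of epithelial genes, ran opposite to Cldn6 and Cdh1 between the genotypes. Its log2 signal was 8.72 in wt and 7.18 in Gcnf -/- ESCs, 8.36 and 7.58 on day 12, 9.39 and 7.82 on day 15, and 8.67 and 8.53 in EpiSCs. All 3 Gcnf -/- arrays were below all 3 wt arrays, and EpiSCs lay among the wt arrays. Zeb1 was lower in Gcnf -/- cells by 2.91-fold in ESCs, 1.72-fold on day 12 and 2.96-fold on day 15. The estimate over stages was -1.30 (SE 0.30, lower in 3 of 3 stages, limma adjusted p = 0.206, unadjusted 0.00462), and it passed under none of the 13 alternatives (limma adjusted p 0.0650 to 0.513). The fibroblast markers were also higher on the wt than on the Gcnf -/- ESC array, by a mean log2 signal of 9.08 against 6.36. On day 15 they were at 4.74 and 5.03. Without the ESC arrays the Zeb1 estimate was -1.18. The part of feeder RNA in the Zeb1 difference was not tested. Zeb1 lies on chromosome 18, with median genotype differences of -0.09 (ESCs), -0.15 (day 12) and -0.27 (day 15), against -0.01, -0.01 and -0.08 over the other chromosomes.

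**Figure D2:**
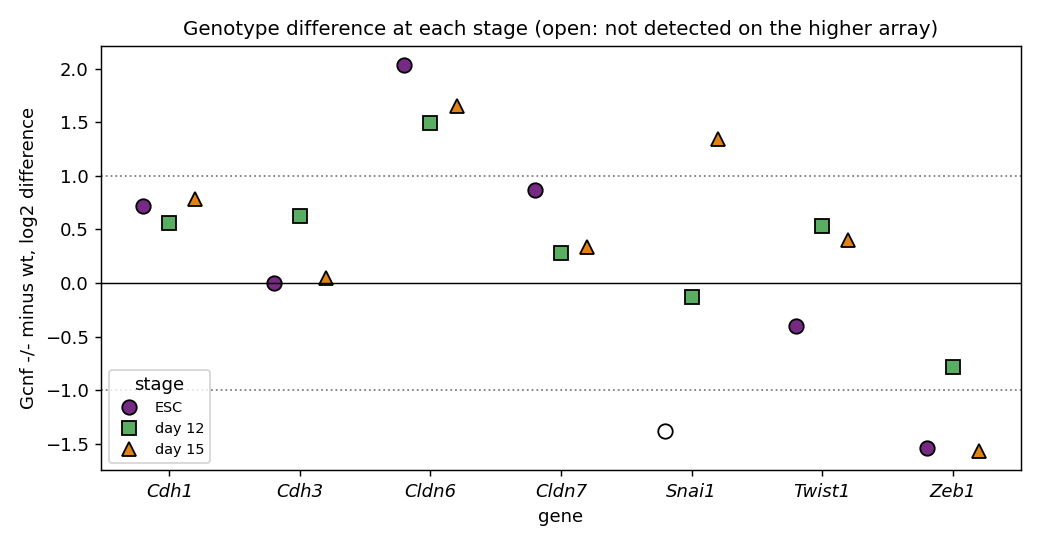
Difference in normalized log2 signal between the Gcnf -/- and the wt array (y axis) for 7 genes (x axis) in ESCs, on day 12 and on day 15, with 1 array per genotype and stage and dotted lines at 2-fold. Cldn6 lay above and Zeb1 below 0 in all 3 stages, and Cdh1 lay above 0 by 0.56 to 0.78.

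Counting the genes over 2-fold apart and detected on the higher array, 2 of 6 members detected on either array were reached in ESCs (Cldn6 higher and Zeb1 lower in Gcnf -/-), 1 of 7 on day 12 (Cldn6 higher) and 3 of 7 on day 15 (Cldn6 and Snai1 higher, Zeb1 lower). Of all genes so detected 19.1%, 10.1% and 25.1% did so at these stages. With 6 or 7 genes the counts are not read further, and Snai1 entered on day 15 only through the higher array.

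Zeb2, a relative of Zeb1, was detected in EpiSCs alone. Its detected probe read 7.86 and 7.38 on the EpiSC arrays and, not detected, 4.31 in wt and 3.25 in Gcnf -/- ESCs, 4.75 and 4.63 on day 12, and 3.86 and 4.38 on day 15. Taking the lowest signal among detected probes as the limit on the other arrays, EpiSCs were at least 3.67-fold higher than ESCs (limma adjusted p = 0.0137) and at least 3.76-fold higher than PGCs (limma adjusted p = 0.000597). The probe entered these fits only through the EpiSC arrays, and both p-values rest on signals below detection on the other side. The other Zeb2 probe was detected on no array.

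Twist1, a basic helix-loop-helix factor of mesoderm, was higher in EpiSCs too. It read 6.85 in wt and 6.45 in Gcnf -/- ESCs, 6.14 and 6.68 on day 12, 6.69 and 7.09 on day 15, and 8.72 and 8.76 in EpiSCs. The EpiSC arrays were above all 6 others, which overlapped by genotype and stage. EpiSCs were 4.25-fold above ESCs (log2 difference 2.09, SE 0.24, limma adjusted p = 0.0137) and 4.26-fold above PGCs (2.09, SE 0.30, limma adjusted p = 0.00250).

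The sequences before the starts of Twist1 and Zeb2 are shown as those of the EMT factors that stood apart in EpiSCs, from RefSeq (GRCm38.p6). They are chr12:33957421-33957670 on the plus strand for Twist1 and chr2:45117443-45117692 on the minus strand for the farthest upstream of the 4 Zeb2 starts, 250 bases each, 5′ to 3′, with no capitals because neither holds CAGGTG or CACCTG.
Twist1: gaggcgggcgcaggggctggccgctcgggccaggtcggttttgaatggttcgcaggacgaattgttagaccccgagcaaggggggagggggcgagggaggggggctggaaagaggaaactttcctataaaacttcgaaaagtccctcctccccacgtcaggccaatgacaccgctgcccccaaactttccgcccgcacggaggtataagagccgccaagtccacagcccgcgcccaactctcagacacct
Zeb2: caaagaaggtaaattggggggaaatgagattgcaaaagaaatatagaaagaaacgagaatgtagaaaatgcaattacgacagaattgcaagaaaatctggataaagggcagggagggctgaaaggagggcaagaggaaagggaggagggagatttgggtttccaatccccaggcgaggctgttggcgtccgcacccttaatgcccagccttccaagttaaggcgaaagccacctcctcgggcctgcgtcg
The Snai1 window holds 1 E-box, the windows of the 2 Cldn7 starts hold 0 and 2, and the Epcam window holds 2. The other Zeb2 windows hold none, and 17.2% of all RefSeq windows hold at least 1. Promoter entries were matched for 6 of the 10 genes.

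Snai1, which encodes the Snail repressor, stayed near the limit of detection. Its brighter probe was detected in wt day 12 cells (5.89), in Gcnf -/- day 15 cells (6.21) and on 1 EpiSC array (6.47), and read 5.61 and 4.23 in wt and Gcnf -/- ESCs, 5.76 in Gcnf -/- day 12 cells, 4.86 in wt day 15 cells and 6.02 on the other EpiSC array. The detected values did not fall with 1 genotype or 1 stage, and neither genotype was higher in all stages. On day 15 it was at least 1.78-fold higher in Gcnf -/- than in wt cells. The second Snai1 probe was detected on no array.

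In the EpiSC fits 2 of 8 member genes tested passed against ESCs, Zeb2 and Twist1, both higher, where 2617 of 12219 probes did (21.4%). Against PGCs 4 of 8 passed, Zeb2, Cldn6 and Twist1 higher and Cdh3 lower, where 4208 of 12752 probes did (33%). Zeb2 entered both fits only through the EpiSC arrays, so its calls are not of the same kind as those of the other genes. Both calls against ESCs were lost without either EpiSC array, with 0 members passing, and against PGCs 2 remained, Twist1 and Zeb2. Leaving out the wt ESC array, an alternative chosen after seeing the data, sets EpiSCs against the Gcnf -/- ESC array alone. Its calls are not read further. Zeb1 read 8.67 and 8.53 in EpiSCs, beside 8.72 in wt and 7.18 in Gcnf -/- ESCs. Snai1 was not detected on the Gcnf -/- ESC array (4.23).

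**Figure D3:**
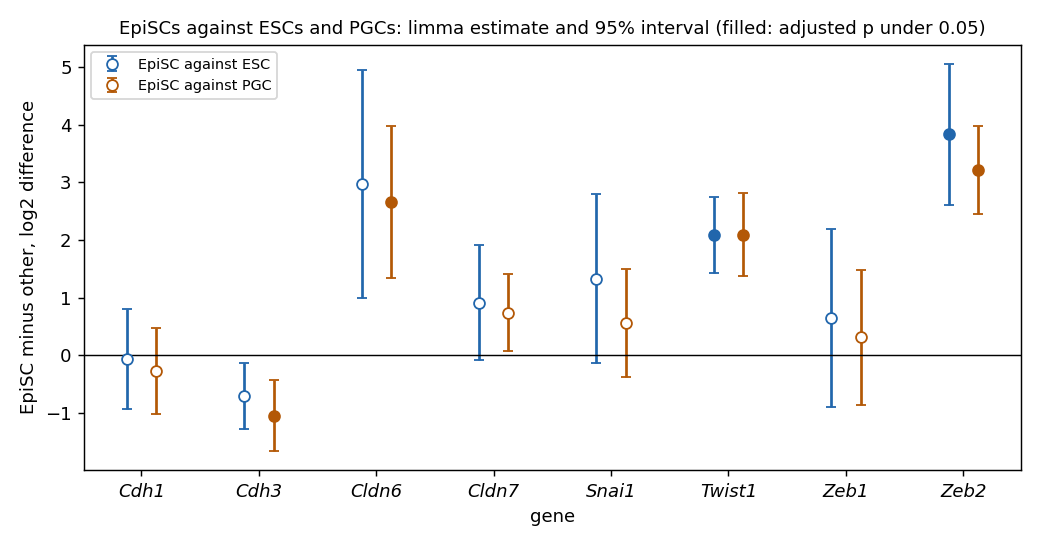
Limma estimate of the log2 difference of the 2 EpiSC arrays from the 2 ESC arrays (blue) and from the 4 PGC arrays (orange) on the y axis, with 95% intervals, for 8 genes (x axis), filled where the adjusted p was under 0.05. Zeb2 and Twist1 passed in both, and Cldn6 (higher) and Cdh3 (lower) against PGCs. Zeb2 was detected in EpiSCs alone and entered both fits only through those arrays.

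Cdh2 and Zeb2 were detected on no ESC or PGC array, so the steps from ESCs to sorted PGCs are described for the other 7 genes. From wt ESCs 0 of 6 detected members were over 2-fold apart on day 12 and 0 of 6 on day 15, where 24.3% and 33.5% of all detected genes were. From wt day 12 to day 15, with 23.2% of all detected genes over 2-fold apart, Zeb1 was 2.03-fold higher and Snai1 at least 1.43-fold lower (2 of 7), and both stood close to the limit of 2-fold on the measured values. In Gcnf -/- cells the counts were 0 from ESCs to day 12 (14% of all genes), 1 from ESCs to day 15 (Snai1, at least 1.42-fold higher, 18.8% of all genes) and 0 from day 12 to day 15 (4.84% of all genes). In the limma fit of 4 PGC against 2 ESC arrays 0 of 7 members passed, where 46 of 12717 probes did (0.362%), and the largest of their estimates was 0.76, for Snai1. In the interaction fit, which asks whether that difference depended on genotype, 0 of 7 members and 0 probes (0%) passed, with 766 probes at an unadjusted p under 0.05, and the member nearest the threshold was Snai1 (1.99, SE 0.79, limma adjusted p = 0.836).

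Among the other claudins, 4 of 16 with a probe were detected on at least 1 array, and 2 of them changed from ESCs to PGCs, a step at which Cldn6 and Cldn7 did not pass. Cldn4 read 8.85 and 9.50 in wt and Gcnf -/- ESCs, 10.84 and 11.46 on day 12, 10.79 and 11.66 on day 15, and 6.70 and 7.19 in EpiSCs. PGCs were thus above ESCs on every array and EpiSCs below all. Cldn4 rose 4.03-fold from ESCs to PGCs (limma adjusted p = 0.0492) and fell by 2.23 on the log2 scale in EpiSCs against ESCs (limma adjusted p = 0.0224) and by 4.24 against PGCs (limma adjusted p = 0.000227). Cldn3 was not detected in ESCs (2.58 and 3.42) and was detected at 5.71 to 6.45 in PGCs and at 6.82 and 6.58 in EpiSCs, at least 1.33-fold higher in PGCs (limma adjusted p = 0.0470) and at least 1.94-fold higher in EpiSCs than in ESCs (limma adjusted p = 0.00927). Both ESC to PGC calls were close to the threshold, and each was lost under 6 or 7 of 13 alternatives. They were lost without the wt ESC array (limma adjusted p = 0.303 for Cldn3 and 0.306 for Cldn4) and without the arrays of either day. Cldn11 was detected in EpiSCs alone, at 6.67 and 6.88, at least 2.05-fold above ESCs (limma adjusted p = 0.00405). Cldn3 and Cldn11 entered the fits against ESCs only through the group where they were higher. Their p-values there rest on ESC signals below detection.

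**Figure D4:**
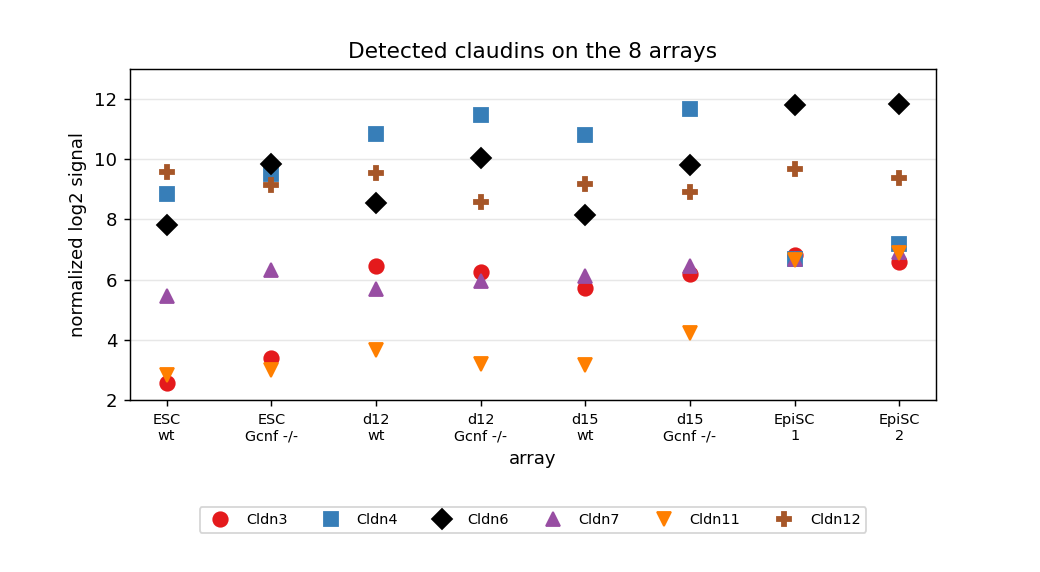
Normalized log2 signal (y axis) of the 6 claudins detected on at least 1 array, on each of the 8 arrays (x axis), where signals of different genes are not comparable. Cldn6 separated the genotypes and was highest in EpiSCs, Cldn4 was highest in PGCs and lowest in EpiSCs, and Cldn3 rose from values below detection in ESCs.

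Genes of tight junctions, desmosomes and epithelial control were also compared in EpiSCs, and their counts are to be read beside the 21.4% of all probes that passed against ESCs and the 33% against PGCs. Of 6 tight junction genes tested against ESCs 1 passed, Marveld3 (at least 2.71-fold higher, limma adjusted p = 0.00622), and of 8 tested against PGCs Marveld3 was higher and Tjp3, a scaffold protein of the junction, lower (at least 4.07-fold, limma adjusted p = 0.00177). Of 11 epithelial regulators tested against ESCs Rab25 and Grhl2 were higher, by at least 2.02-fold and by 2.36-fold, and Klf5, Grhl3 and Elf3 were lower, by 14.5-fold, at least 2.16-fold and at least 6.39-fold (limma adjusted p 0.00405 to 0.0261). Klf5 is also a factor of naive pluripotency. Marveld3 and Rab25 entered these fits only through the EpiSC arrays. Grhl3, Elf3 and Dsg2 entered the fit against ESCs only through the ESC arrays, where they were higher. Tjp3, Elf3, Grhl3, Pkp3 and Klf8 entered the fit against PGCs only through the PGC arrays. The p-values of these falls rest on EpiSC signals below detection. Where a fold is given as a lower bound, its p-value rests on signals below detection on the lower side. Against PGCs 4 of 11 fell, Elf3, Grhl3, Klf5 and St14, and none rose, a share near that of all probes. Nectin3, an adhesion partner of cadherin junctions, was 2.62-fold higher than in ESCs (1 of 5 catenin and adherens junction genes), and the desmosomal cadherin Dsg2 was at least 2.91-fold lower (1 of 3). Against PGCs Dsg2 did not pass (-0.99, limma adjusted p = 0.0922) and the desmosomal plaque protein Pkp3 did (at least 1.23-fold lower, limma adjusted p = 0.0343). Without either EpiSC array the calls against ESCs of Cldn3, Cldn4, Marveld3, Rab25, Grhl2, Grhl3, Elf3, Nectin3 and Dsg2 were lost (limma adjusted p 0.0599 to 0.270), and those of Klf5 and Cldn11 were lost without the second alone (0.0504 and 0.0513). Of the 14 other classical and related cadherins with a probe 1 was detected on any array, Cdh11, on 2 of the 8. Of 4 other EMT factors tested in EpiSCs 0 passed against ESCs and 1 (Klf8, detected on 1 PGC array) against PGCs, and of the mesenchymal genes 0 of 6 passed against ESCs and 2 of 5 rose against PGCs, Vim (5.32-fold) and Mmp14 (5.12-fold). The calls against PGCs of St14, Pkp3 and Vim were lost without either EpiSC array (limma adjusted p 0.0636 to 0.252), and that of Klf8 without the first.

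By genotype, 0 genes of these lists passed the fit over stages. In ESCs, where 19.1% of all detected genes were over 2-fold apart, Tjp1 (3.32-fold) and F11r (2.08-fold) of the tight junction list were higher in the Gcnf -/- array, and Tjp3 (at least 1.77-fold) and Pard3 (at least 1.25-fold) were detected there and not in wt. Of 10 epithelial regulators 3 were over 2-fold higher, Esrp1 (9.82 against 7.82), Elf3 (2.55-fold) and Spint2 (2.48-fold). Of 6 detected mesenchymal genes 5 were over 2-fold lower there, among them Acta2 (21.7-fold), Mmp2 (6.48-fold) and Sparc (3.31-fold). Of 4 other EMT factors detected, Lef1 (at least 1.87-fold) and Snai3 (2.23-fold) were higher in Gcnf -/- ESCs and Twist2 (at least 1.16-fold) was lower. The same 2 arrays differed in fibroblast markers, 12 of 13 detected genes being over 2-fold lower in Gcnf -/- ESCs, and the part of feeder RNA in these ESC values was not tested. On day 15 fibroblast markers were at 4.74 and 5.03, and 25.1% of all detected genes were over 2-fold apart. There Tjp1 was 3.79-fold, Esrp1 2.44-fold and Spint2 2.48-fold higher in Gcnf -/- cells. Elf3 was 2.52-fold, Dsg2 2.37-fold and Ocln, a tight junction protein, at least 1.41-fold lower. The mesenchymal genes Acta2 and Vim were higher. On day 12, where 10.1% of all detected genes were over 2-fold apart, Tjp1 read 9.43 and 9.29 in wt and Gcnf -/- cells. Esrp1 read 9.97 and 9.96. Spint2 (3.03-fold), Pard3 (at least 1.47-fold) and Sparc (2.28-fold) were higher in Gcnf -/- cells. Grhl2 (2.90-fold), Nectin3 (2.51-fold), Acta2 (2.27-fold) and Lef1 (at least 4.15-fold) were lower. Spint2 was over 2-fold higher in Gcnf -/- cells at every stage.

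As a description over the 8 arrays, with no test, the genes most like Cdh1 among 7411 detected on at least 4 arrays were Nprl3, Sult2b1 and Guca1a (Pearson r of 0.97, 0.96 and 0.96). For Cdh2 and Epcam no such genes could be named. Cdh1 and Zeb1 had an r of -0.89, Cldn6 and Zeb1 of -0.23 and Zeb2 and Twist1 of 0.92, and these points share genotype, stage and the EpiSC pair.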

How the data were processed

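RNA from 8 samples was hybridized to Illumina mouse BeadChips. The authors summarized bead intensities with BeadStudio 3.2, and deposited per array an intensity signal and a detection p-value per probe, together with a table of log2 values, RMA background-corrected and quantile normalized (tools named in the submitters' notes: RMA, lumi). Here the deposited signal of 25697 probes was corrected with the RMA background model, put on the log2 scale and quantile normalized over the 8 arrays, and these values correlated at 0.998 with the authors' table, which served as an alternative. Probes detected (p under 0.01) on at least 1 array of a comparison were fitted with limma 3.58.1 in R 4.3.3 (lmFit and eBayes), with Benjamini-Hochberg adjustment over all probes and a threshold of 0.05. The genotype fit had stage as a block, and the fit of PGCs against ESCs had genotype as a term. The EpiSC fits had no further term. Gene names came from the platform annotation (23978 probes with 1 symbol, 1719 with none). A gene was represented by its brightest probe on average. Where a gene was detected on no array of the dimmer group, the fold is a bound against the lowest signal among detected probes of each array, or the probe's own signal if higher. The arrays' number, and not read depth, limits precision. p-values measure the spread between these samples, which may be technical. In the EpiSC fits that spread also holds the genotype and, among PGCs, day differences within the pooled groups.

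All 10 members were named, and from each list up to 4 genes a comparison, the largest detected differences over 2-fold or past the fit; genes most like Cdh1 were named by Pearson r. The members, lists and tests were chosen with earlier results of these data known. The fits were tested on simulated data. Alternatives covered background correction, normalization, detection filter, intensity trend, blocks and left-out arrays.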

Additional observations from a re-analysis of the deposited data

Results flagged for a closer look

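The measured values of Snai1 differed in sign between the genotypes and between the stages, and they are given as values. From ESCs to day 15 it moved by -0.75 on the log2 scale in wt and by 1.98 in Gcnf -/- cells, and from day 12 to day 15 by -1.03 in wt and 0.44 in Gcnf -/- cells. Gcnf -/- minus wt gave -1.38 for ESCs, -0.13 for day 12 and 1.35 for day 15. Each value compares 1 array with 1 array, so these differences between single comparisons were not tested. The probe was detected on neither array behind -0.75 (wt ESCs to day 15) and -1.38 (genotype in ESCs). No direction can be given for those values. The probe was detected on 3 of the 8 arrays, and the interaction fit over both days gave 1.99 (limma adjusted p = 0.836).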

How the results depend on the processing

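The count of member genes past each limma fit held under every alternative in some fits and moved in others. It moved most often for EpiSCs against ESCs. For genotype it was 0, and 1 (Cldn6) with neqc, with an offset of 50, without background correction and with an intensity trend. For PGCs against ESCs and for the interaction it was 0 under every alternative run. Against ESCs it was 2, and 3 (Cldn6 added) in the authors' table, with neqc, an offset of 50, no background correction, median scaling and an intensity trend, 0 without either EpiSC array and 5 without the wt ESC array (chosen after seeing the data). Against PGCs it was 4, 5 with no detection filter (Cdh2 added, which was detected on no array) and 2 without either EpiSC array. The counts over 2-fold apart moved as follows. Genotype in ESCs went from 2 to 4 with no detection filter and to 1 at 4-fold, genotype on day 12 from 1 to 0 at 4-fold and to 2 with the next brightest probe, and genotype on day 15 from 3 to 0 at 4-fold. From wt day 12 to day 15 the count of 2 was 1 in the authors' table, with median scaling and with the next brightest probe, and 0 with neqc, an offset of 50, no background correction and at 4-fold. In Gcnf -/- cells the count from ESCs to day 12 went from 0 to 2 with no detection filter and to 1 at a detection p under 0.05, and that from ESCs to day 15 from 1 to 0 with an offset of 50, without background correction, at 4-fold and with the next brightest probe, and to 2 with no detection filter. Where a value moved, the cause was not tested. Direction under the alternatives was followed for Cdh1, Cldn6 and Zeb1 by genotype and for Cldn3 and Cldn4 from ESCs to PGCs. In the EpiSC fits it was followed for Cldn6, Twist1, Zeb2, Cdh3 and the junction, epithelial, EMT and mesenchymal list genes called there. None of these changed direction. The direction of the other members in each fit, such as Snai1, was not followed. Over all probes the genotype fit called 1, and 0 to 109 under alternatives (109 with the offset, 103 with the trend, 60 without the ESC arrays), the fit of PGCs against ESCs 46, and 0 to 325 (0 without the arrays of either day or the wt ESC array), EpiSCs against ESCs 2617, and 203 to 4853 (204 and 203 without an EpiSC array, 1660 with no filter), and EpiSCs against PGCs 4208, and 1548 to 4467. By replicate number, no paired analysis was possible because the groups share only replicate number 1. The genotype fit pairs the genotypes by stage, and without that block it called 0 members and 0 probes. Signals near background (Snai1, Cldn7, the undetected Cdh2) limit what can be said of those genes.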
